A study of Homo sapiens with 40 samples.

Results

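The 9 chemokine genes described here are CXCL8, CXCL1, CXCL2, CXCL3, CXCL10 and CXCL11, which encode CXC chemokines, and CCL20, CCL2 and CCL5, which encode CC chemokines. They were taken by name from the 58395 genes of the count table, and CXCL8, CCL20 and CXCL10 were chosen by their levels in these same libraries, in wild-type (WT) cells with topotecan against untreated WT cells. The Tpc values in WT cells are therefore given as a description, without a test. All 9 genes were among the 28922 genes with a summed count of at least 10 over all libraries, which were the genes tested.

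The libraries came from HEK293A cells, an adherent human embryonic kidney line, either WT or with a CRISPR/Cas9 knockout of PARP1 (PARP1-KO). The knockout was a single clone, called a PARP1 knockdown in one of the labels, and is compared with the parental cells. Each genotype received 5 treatments for 5 to 5.5 h: no treatment, 0.1% DMSO (the solvent), topotecan (Tpc, a poison of DNA topoisomerase 1) with 0.1% DMSO, OL9-119 (an inhibitor of tyrosyl-DNA phosphodiesterase 1) at 5 µM in 0.1% DMSO, or Tpc with 5 µM OL9-119. The Tpc dose differed between the lines, being 100 nM for WT and 50 nM for PARP1-KO. The dose and the genotype therefore cannot be told apart in any comparison of Tpc-containing treatments between the cell lines. Each of the 10 conditions had 4 libraries, 40 in all. The labels call these biological replicates and the study's methods call them technical. The p-values below therefore set each difference against the spread between these libraries. If the libraries are technical, that spread does not cover repeat cultures. With a single clone it does not cover other clones.

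Chemokines are small secreted proteins that bind G protein-coupled receptors and direct the movement of leukocytes along a gradient. CXCL8, CXCL1, CXCL2 and CXCL3 act on the receptor CXCR2 and attract neutrophils. CXCL10 and CXCL11 act on CXCR3 and attract activated T cells. CCL20 acts on CCR6, CCL2 on CCR2, and CCL5 on several receptors. Many chemokine genes are transcribed through NF-kappa B, a family of dimeric transcription factors held in the cytoplasm by inhibitors such as NFKBIA, and CXCL10 and CXCL11 are also known as interferon-induced genes. Several of their mRNAs carry AU-rich elements and are short-lived.

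The promoters are shown because they carry the kappa B-like sequences that these genes are known for. RefSeq promoter windows on GRCh38.p14, from 250 bases before to 50 bases after the start site, were at hand for 7 of the 9 genes, all except CCL2 and CCL5. Capitals mark matches, on either strand, to 4 motifs: the kappa B-like letters GGNNNTTCC, the interferon-stimulated response element-like letters GAAANNGAA, the AP-1 letters TGANTCA and the TATA box letters TATAAA. No 2 marked matches overlapped. The stretches below are written 5′ to 3′ on the strand of the gene. They lie at chr4:73740419-73740549 (plus strand) for CXCL8, chr4:73869308-73869373 (plus) for CXCL1, chr4:74099215-74099280 (minus) for CXCL2, chr4:74038709-74038774 (minus) for CXCL3, chr4:76023592-76023727 (minus) for CXCL10, chr4:76036100-76036170 (minus) for CXCL11 and chr2:227813742-227813822 (plus) for CCL20.
CXCL8: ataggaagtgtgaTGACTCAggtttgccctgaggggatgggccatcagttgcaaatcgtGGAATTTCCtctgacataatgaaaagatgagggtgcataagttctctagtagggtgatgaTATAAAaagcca
CXCL1: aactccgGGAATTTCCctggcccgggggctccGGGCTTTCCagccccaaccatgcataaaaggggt
CXCL2: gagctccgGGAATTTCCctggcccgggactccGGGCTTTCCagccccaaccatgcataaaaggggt
CXCL3: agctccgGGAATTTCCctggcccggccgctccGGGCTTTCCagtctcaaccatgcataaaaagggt
CXCL10: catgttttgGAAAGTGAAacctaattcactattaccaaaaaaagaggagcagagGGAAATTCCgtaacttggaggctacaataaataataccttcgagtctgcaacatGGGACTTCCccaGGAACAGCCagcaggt
CXCL11: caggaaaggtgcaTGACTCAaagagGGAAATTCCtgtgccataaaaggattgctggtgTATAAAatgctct
CCL20: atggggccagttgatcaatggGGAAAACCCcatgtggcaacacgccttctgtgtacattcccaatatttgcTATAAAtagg

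All 7 promoter windows held at least 1 kappa B-like match, compared with 20.1% of the 35116 promoter windows in the table. CXCL1, CXCL2 and CXCL3 each held a pair of matches, GGAATTTCC and GGGCTTTCC, at nearly the same distances before the start site. The GGAATTTCC of CXCL8 has the same letters. CXCL10 held 3 matches and CCL20 a single one on the opposite strand. The interferon-stimulated response element-like letters were found in CXCL2, CXCL3 and CXCL10 and in 8.11% of all windows; those of CXCL2 and CXCL3 lie upstream of the stretches printed. AP-1 matches were found in CXCL8 and CXCL11 and in 7.71% of all windows, and a TATAAA in CXCL8, CXCL11 and CCL20 and in 11.5% of all windows. A match is a description of the letters, and binding was not measured.

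**Figure D1:**
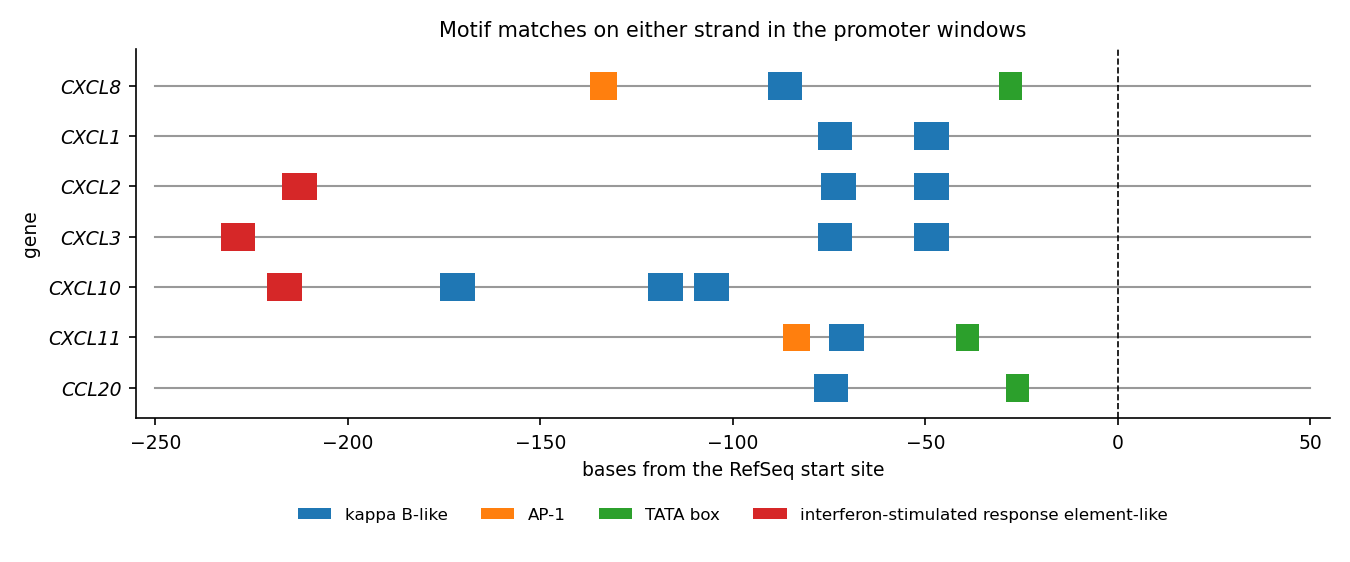
Motif matches in the promoter windows of 7 chemokine genes, by distance in bases from the RefSeq start site (dashed line), with 1 row per gene and 1 colour per motif. Every gene shows a kappa B-like match (blue), and the CXCL1, CXCL2 and CXCL3 rows show the same pair of blue matches close to the start site.

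Library totals ranged from 3455043 to 20379777 counts, with a median of 10656829. PARP1 itself, the targeted gene, had 737 to 887 CPM (counts per 1000000 counts) in the 20 WT libraries and 30.4 to 46.6 CPM in the 20 PARP1-KO libraries, with no overlap. CPM values here are scaled to the TMM effective library size. When all libraries were thinned to the lowest total, 15510 to 20619 genes were detected in WT and 17970 to 21571 in PARP1-KO libraries. The sum over 7 HEK293 markers was 1668 to 2553 CPM in WT and 1826 to 2228 CPM in PARP1-KO cells. VIM or KRT8 was the highest in CPM by condition, so the sum says little about the scarcer markers. With DMSO, 4 of the 7 were lower and 1 was higher in PARP1-KO cells, where 5.75% of all genes were lower and 6.67% higher. The sum over 10 leukocyte markers was 2.04 to 13.7 CPM in WT and 4.48 to 13.97 CPM in PARP1-KO cells, with CSF1R, CD14 or ITGAM the highest by condition, and 6 to 8 of the 10 were counted in the WT conditions against 9 or 10 in the PARP1-KO conditions. PTPRC, which defines leukocytes, had 0 counts in every WT library and 2 to 9 counts over the 4 libraries of each PARP1-KO condition. The median library total was 9258040 counts in WT and 11407498.5 in PARP1-KO cells. After thinning, the median number of detected genes was 19457 in WT and 20574 in PARP1-KO libraries. The marker detection was not adjusted for these differences, and their part in it was not tested. The 3 endothelial markers summed to at most 7.50 CPM and the 4 fibroblast markers to at most 66.6 CPM, with COL1A1 or COL3A1, collagen chains, the highest in CPM.

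The neutrophil-attracting CXCL8 had the highest mean level per kilobase of the 9 transcripts in every condition, though in untreated WT cells CCL2 was close to it (4.28 against 4.35 CPM per kb). In WT cells with DMSO it was counted at 15.4, 23.3, 10.9 and 11.4 CPM in the 4 libraries. With Tpc it stood at 294, 440, 348 and 335 CPM, and with Tpc + OL9-119 at 453, 360, 291 and 326 CPM. Both Tpc-containing groups lay wholly above DMSO. OL9-119 alone gave 18.2, 20.8, 16.3 and 16.5 CPM, which overlaps the DMSO group. In PARP1-KO cells CXCL8 stayed between 30.7 and 49.1 CPM in all 20 libraries, whatever the treatment. Its mean levels fell into 3 tiers whose ranges did not overlap: WT with Tpc or Tpc + OL9-119, then the 5 PARP1-KO conditions, then WT without Tpc.

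CCL20, the ligand of CCR6, followed the same order. Its WT DMSO libraries held 6.04, 1.48, 4.79 and 2.19 CPM. Its WT Tpc libraries held 64.9, 102.1, 66.2 and 58.7 CPM and its WT Tpc + OL9-119 libraries 91.5, 63.8, 63.9 and 72.5 CPM. The latter groups overlapped each other and lay above every other library. All PARP1-KO libraries lay between 8.53 and 17.2 CPM, above every WT library without Tpc, the highest of which held 6.09 CPM.

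CXCL1, CXCL2 and CXCL3, the other neutrophil-attracting ligands, were much scarcer. CXCL1 had 0.426, 0, 1.32 and 0.313 CPM in WT DMSO libraries, 10.1, 21.8, 11.3 and 11.9 CPM with Tpc, and 30.8, 33.03, 16.1 and 19.2 CPM with Tpc + OL9-119. CXCL2 was at 0 in 3 of the 4 WT DMSO libraries and had 0.719 CPM in the other. It had 7.86, 2.31, 4.18 and 6.96 CPM with Tpc and 11.8, 15.4, 9.71 and 12.9 CPM with Tpc + OL9-119. The last 2 groups did not overlap. CXCL3 had 1.49, 0, 0 and 0.313 CPM with DMSO, 4.01, 3.82, 6.03 and 5.03 CPM with Tpc, and 11.1, 7.66, 7.97 and 13.2 CPM with Tpc + OL9-119, 3 groups without overlap. In the PARP1-KO libraries the 3 genes spanned 1.53 to 7.85 CPM (CXCL1), 0.470 to 5.37 CPM (CXCL2) and 0.627 to 3.92 CPM (CXCL3).

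CXCL10, the CXCR3 ligand, stayed at or below 1.21 CPM outside the Tpc-treated WT groups. Its 4 WT DMSO libraries held 0, 1, 0 and 5 counts, or 0, 0.105, 0 and 0.783 CPM. With Tpc it had 11.2, 8.80, 8.82 and 8.51 CPM, and with Tpc + OL9-119 it had 22.8, 19.8, 15.1 and 11.8 CPM. These groups did not overlap each other or any other group. The PARP1-KO libraries had at most 15 counts, or 1.18 CPM. CXCL11, which shares the receptor of CXCL10, showed no such pattern. Its WT libraries held 0 to 3.60 CPM with 6 of 20 at 0, and its PARP1-KO libraries 0.441 to 3.33 CPM with none at 0. Every neighbouring pair of conditions in its order of means overlapped.

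CCL2, which attracts monocytes, had 9.31, 6.65, 7.07 and 5.32 CPM in WT DMSO libraries, 19.9, 15.3, 13.5 and 14.7 CPM with Tpc, and 27.2, 27.3, 19.2 and 15.1 CPM with Tpc + OL9-119. Both Tpc-containing groups lay above DMSO, though the WT untreated and OL9-119 groups were wide, from 0 to 17.8 and from 5.25 to 19.5 CPM. Its PARP1-KO libraries lay between 2.12 and 7.71 CPM. CCL5, which attracts T cells and monocytes, was counted rarely and had no higher counts with Tpc. It had 8, 0, 10 and 0 counts in WT DMSO libraries, at most 1 count in any WT Tpc library and 0 in all 4 WT Tpc + OL9-119 libraries. In PARP1-KO cells it was counted in 19 of 20 libraries, at up to 21 counts. Small differences of CCL5 and CXCL11 were not detectable at this depth.

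**Figure D2:**
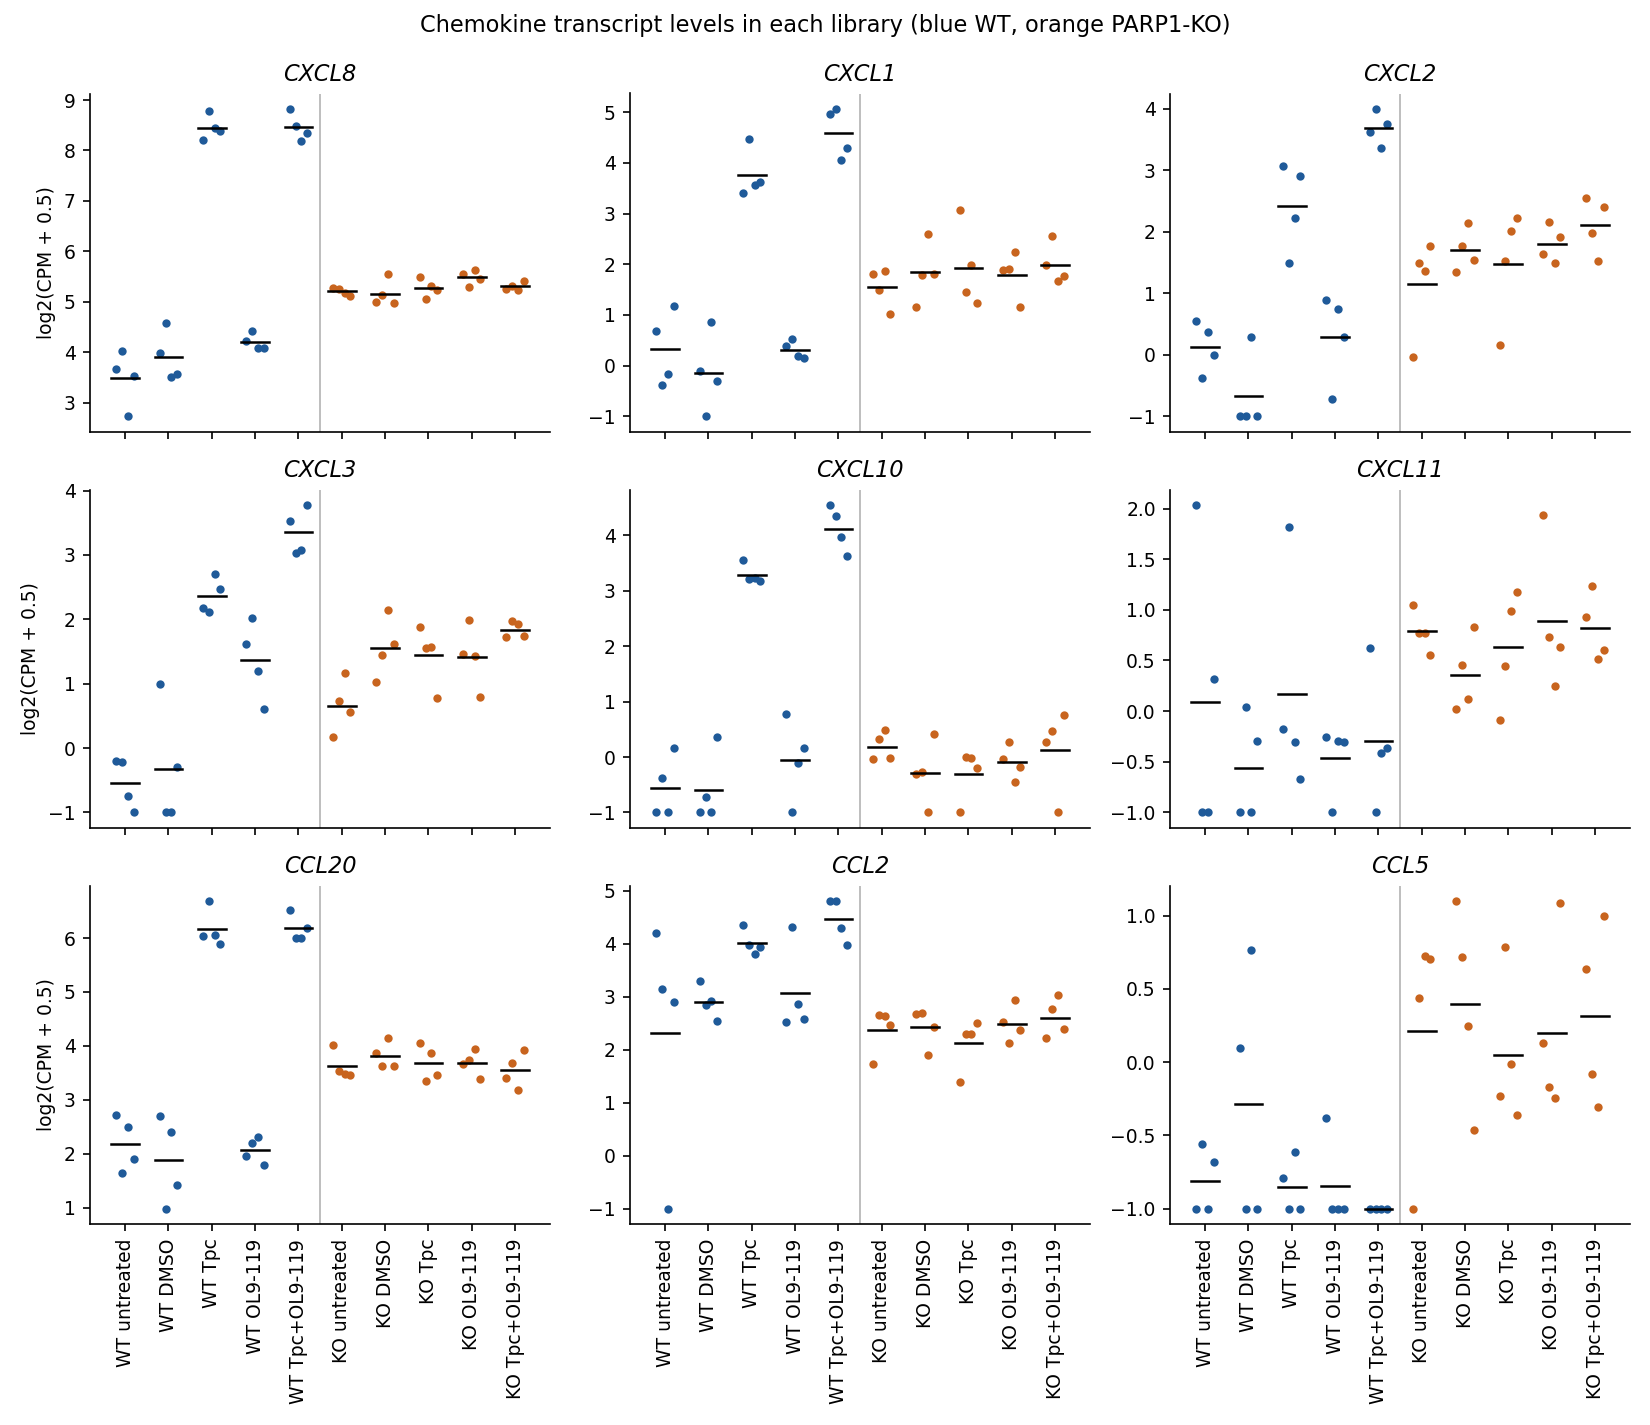
Level of each of the 9 chemokine transcripts as log2(CPM + 0.5) in every library, with 1 panel per gene, the 10 conditions on the horizontal axis, WT in blue, PARP1-KO in orange, points for the 4 libraries and a black line for their mean. CXCL8 and CCL20 show 3 separate tiers, with the PARP1-KO libraries between WT with and without Tpc, while CXCL10 is high only in the 8 WT libraries given Tpc or Tpc + OL9-119.

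Levels of different genes were compared per kilobase of exon. The 9 transcripts together amounted to 13.2 ± 2.56 CPM per kb (SD, n = 4) in WT cells with DMSO and 16.9 ± 4.28 with OL9-119. With Tpc the sum was 215 ± 37.4 CPM per kb, and with Tpc + OL9-119 it was 242 ± 45.5. In PARP1-KO cells the condition means lay between 29.7 ± 1.25 (untreated) and 35.0 ± 3.10 (OL9-119). CXCL8 made up 44.7% of the sum in WT DMSO cells and CCL2 27.8%. With Tpc, CXCL8 made up 63.5%, CCL20 21.2% and CCL2 3.80%. In PARP1-KO DMSO cells CXCL8 made up 43.1%, CCL20 26.9% and CCL2 8.05%.

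**Figure D3:**
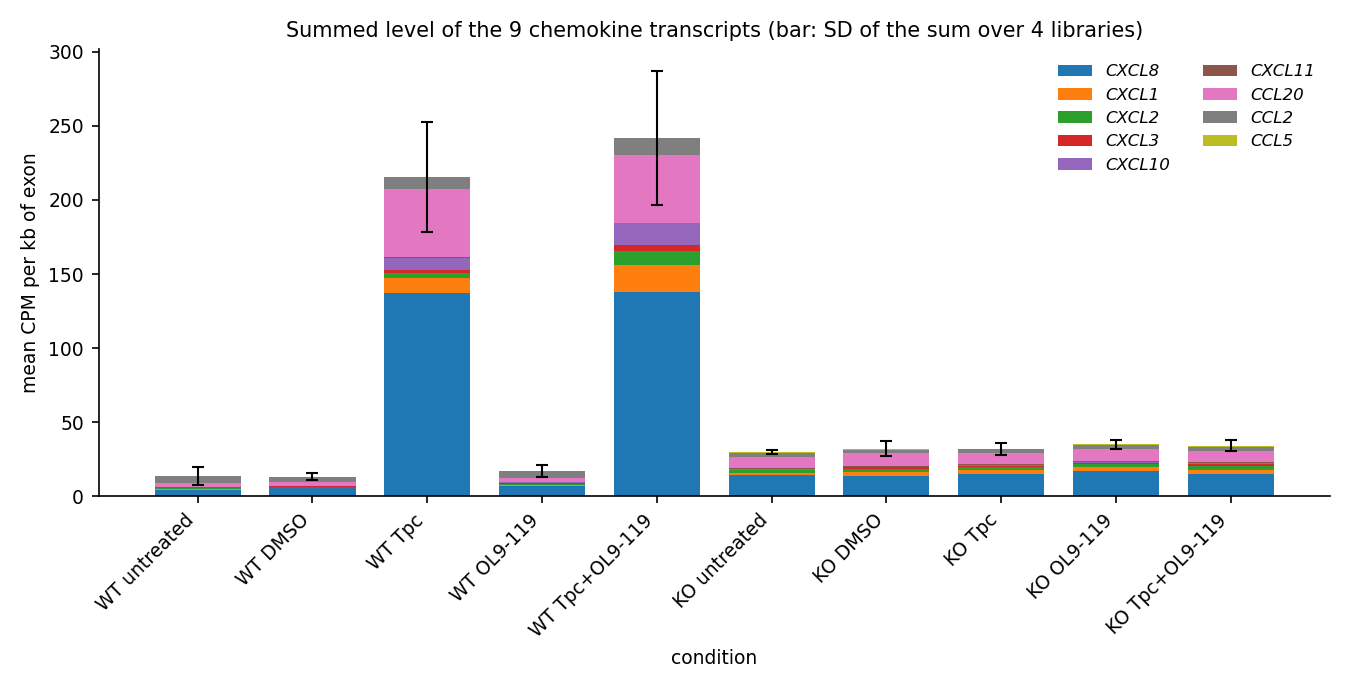
Stacked bars of the mean level of the 9 chemokine transcripts in CPM per kilobase of exon in the 10 conditions, 1 colour per gene, with the SD of the sum over 4 libraries as error bars. The WT Tpc and Tpc + OL9-119 bars reach 215 and 242 CPM per kb and all other bars stay at or below 35.0, with CXCL8 and CCL20 as the tallest segments in the 2 high bars.

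In WT cells the description of Tpc against DMSO, which holds the Tpc libraries used to choose the genes, gave fitted log2 fold changes of 4.52 for CXCL8, 4.28 for CCL20 and 5.63 for CXCL10. CXCL1, CXCL2 and CXCL3 had 4.74, 4.91 and 3.20, CXCL11 2.23 and CCL2 1.15, and CCL5 had 2 counts over the 4 Tpc libraries against 18 over the 4 DMSO libraries. Against untreated cells in place of DMSO, CXCL11 changed sign, to -0.17, where 1 untreated library held 49 counts.

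The combination of Tpc and OL9-119 in WT cells was tested against DMSO. Its libraries were not those whose levels chose CXCL8, CCL20 and CXCL10, but they received Tpc at the same dose in the same cells. All the chemokines were also chosen with earlier results of these data known. A rise of these genes is therefore not independent of their choice, and the p-values describe its size against the spread between libraries. The same limit holds for the comparison with OL9-119 alone and for the interaction test below. Because earlier results were known, the comparison of the genotypes in DMSO cannot be called independent of the choice either. In edgeR's quasi-likelihood test across all genes, with Benjamini-Hochberg adjustment and a threshold of 0.01, 6 of the 9 chemokines rose and none fell, where 1.84% of all genes rose and 1.54% fell. CXCL8 rose by a log2 fold change of 4.54 (SE 0.20, adjusted p = 2.28e-26), and CCL20 by 4.28 (SE 0.29, adjusted p = 5.61e-18). CXCL1 and CXCL2 rose by 5.59 (SE 0.60) and 6.13 (SE 0.82), with adjusted p-values of 3.04e-10 and 1.67e-07. CXCL10 rose by 6.53 (SE 0.97, adjusted p = 2.16e-06) and CXCL3 by 4.28 (SE 0.72, adjusted p = 2.50e-05). For each of these 6 genes all 4 combination libraries lay above all 4 DMSO libraries, which also serve in the other comparisons with DMSO in WT and in that of the genotypes. The share of all genes whose groups were separated in this way was not computed, here or for the genotypes. CXCL10 and CXCL2 had 6 counts each over the 4 DMSO libraries, so the sizes of their changes rest on few reads. Leaving out 1 library moved CXCL10 to between 5.97 and 8.65 (the latter without WT DMSO replicate 4) and CXCL1 to between 5.17 and 6.52 (the latter without WT DMSO replicate 3). Without WT DMSO replicate 3 CXCL2 had no DMSO count left, so that its fitted 10.1 there is no bound. CXCL3 had a log2 fold change of 6.66 without WT DMSO replicate 1. All 4 passed whichever library was left out, but CXCL3 did not pass when only the libraries compared were fitted (adjusted p = 0.0158). CCL2 had 1.64 (SE 0.47, adjusted p = 0.0208), also with all libraries above DMSO, and CXCL11 1.00 (SE 1.19, adjusted p = 0.684). CCL5 did not pass either (adjusted p = 0.0492), and its fitted value is no bound because the combination group had no counts. The median log2 fold change was 4.28 over the 9 chemokines, also with CCL5 at the 3-count floor, and 0.00 over all genes tested. Within the 3 groups of libraries that share a name prefix (L01, L02 and L03), whose meaning is not stated, the differences of log2(CPM + 0.5) ranged from 3.92 to 4.84 for CXCL8, from 3.81 to 5.02 for CCL20 and from 4.11 to 5.54 for CXCL10.

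OL9-119 alone did not move any of the 9 genes past the threshold in WT cells, where 1.15% of all genes changed in either direction and 0.488% rose. CXCL2 and CXCL3 had an unadjusted p under 0.05. CXCL3 had 2.56, 3.56, 1.80 and 1.02 CPM with OL9-119, a log2 fold change of 2.13 (SE 0.69, adjusted p = 0.0772). CXCL2 had 1.35, 0.105, 1.17 and 0.717 CPM and a log2 fold change of 2.27 (SE 0.83, adjusted p = 0.135). Both groups overlapped DMSO. With DESeq2, CXCL3 passed (adjusted p = 0.0070). It also passed without WT DMSO replicate 1, which held 21 of its 23 DMSO counts (log2 fold change 4.52, adjusted p = 0.00136). CXCL2 passed without WT DMSO replicate 3, the only DMSO library with counts (adjusted p = 0.00331). For CXCL8 the 95% interval of the OL9-119 fold was 0.908 to 1.50 and for CCL20 it was 0.663 to 1.47.

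Tpc + OL9-119 was also set against OL9-119 alone in WT cells. Here 5 of the 9 chemokines rose, where 0.249% of all genes did. CXCL8 rose by 4.32 (SE 0.19, adjusted p = 1.28e-25), CCL20 by 4.30 (SE 0.29, adjusted p = 1.11e-17) and CXCL1 by 5.02 (SE 0.57, adjusted p = 5.31e-09) on the log2 scale. CXCL10 rose by 4.87 (SE 0.84; 5.60 without WT OL9-119 replicate 1) and CXCL2 by 3.86 (SE 0.68), with adjusted p-values of 0.000222 and 0.000297. CXCL3 had 2.14 (SE 0.63, adjusted p = 0.0926) with all 4 combination libraries above OL9-119, and passed with DESeq2 (adjusted p = 0.000684). The median log2 fold change was 3.86 over the 9 genes and -0.02 over all genes.

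Tpc with and without OL9-119 was not tested in WT cells, since the Tpc libraries had served to choose the genes. Side by side, the means were 357 ± 69.7 against 354 ± 61.9 CPM for CXCL8 and 72.9 ± 13.03 against 72.96 ± 19.7 CPM for CCL20. They were 24.8 ± 8.38 against 13.8 ± 5.40 CPM for CXCL1, 12.5 ± 2.38 against 5.33 ± 2.55 CPM for CXCL2, 9.97 ± 2.63 against 4.72 ± 1.02 CPM for CXCL3 and 17.4 ± 4.89 against 9.32 ± 1.24 CPM for CXCL10 (SD, n = 4 each). For CCL2 they were 22.2 ± 6.08 against 15.8 ± 2.84 CPM, and for CXCL11 0.391 ± 0.451 against 0.961 ± 1.38 CPM. CCL5 had 0 counts with the combination and 2 with Tpc. The means of CXCL8 and CCL20 were thus nearly equal in the 2 groups. Those of CXCL1, CXCL2, CXCL3, CXCL10 and CCL2 were higher with the combination, and those of CXCL11 and CCL5 were lower. The libraries of the 2 groups did not overlap for CXCL2, CXCL3 and CXCL10. They overlapped for CXCL1, CCL2, CXCL11 and CCL5.

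Without Tpc, several chemokines were higher in PARP1-KO than in WT cells. In DMSO, 5 of 9 were higher and none lower in PARP1-KO cells, where 6.67% of all genes were higher and 5.75% lower. As the genes were chosen with earlier results known, this count cannot be called independent of their choice. CXCL8 had 31.3, 34.5, 46.3 and 30.7 CPM in PARP1-KO DMSO libraries, a log2 fold change of 1.21 against WT (SE 0.18, adjusted p = 5.35e-07). CCL20 had 14.1, 11.8, 17.2 and 11.9 CPM, a log2 fold change of 1.86 (SE 0.28, adjusted p = 4.00e-07). For both genes, and for CXCL1, CXCL2 and CXCL3, all PARP1-KO DMSO libraries lay above all WT DMSO libraries. CXCL1 had 1.74, 2.94, 5.58 and 3.01 CPM (log2 fold change 2.68, SE 0.58, adjusted p = 0.000330) and CXCL2 had 2.05, 2.89, 3.92 and 2.41 CPM (3.99, SE 0.80, adjusted p = 0.000114). Without WT DMSO replicate 3 the fold change of CXCL1 was 3.62, and that of CXCL2, then with no DMSO count left in WT, was fitted at 7.97, which is no bound. Their lowest values without 1 library were 2.27 and 3.45. CXCL3 had 1.54, 2.23, 3.92 and 2.56 CPM and passed only just, at 2.32 (SE 0.68, adjusted p = 0.009999). It did not pass in 7 of the 8 fits without 1 DMSO library, all except that without WT DMSO replicate 1, where the log2 fold change was 4.71. When only the 8 DMSO libraries were fitted, CXCL8 and CCL20 passed and CXCL1, CXCL2 and CXCL3 did not. CXCL10, CXCL11, CCL2 and CCL5 did not pass, with adjusted p-values from 0.228 (CXCL11) to 0.557 (CCL5). The median log2 fold change was 1.86 over the 9 genes and 0.19 over all genes.

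The genotypes were also compared with untreated cells in place of DMSO. The untreated WT libraries are a control of the values that chose CXCL8, CCL20 and CXCL10. Only CXCL8 and CCL20 of the 9 passed there, and as both were so chosen, their passing is not an independent result. There the log2 fold change of CXCL1 was 1.52 (adjusted p = 0.0383), that of CXCL2 1.62 (adjusted p = 0.0802) and that of CXCL3 2.32 (adjusted p = 0.0208). Thinned to the lowest total, the WT DMSO libraries showed 15510 to 19737 genes and the PARP1-KO DMSO libraries 19598 to 21204. The part of this difference in the results for the scarce transcripts was not tested. The clone and the genotype cannot be told apart here. In these bulk samples fewer expressing cells and less RNA per cell cannot be told apart either.

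None of the 9 chemokines passed the edgeR test in PARP1-KO cells, whether given Tpc, OL9-119 or the combination. None had an unadjusted p under 0.05 in any of the 3 comparisons, and none passed with DESeq2. Few genes of any kind passed: the share of all genes called was 0% for Tpc, 0.00346% for OL9-119 and 0% for the combination. With 50 nM Tpc, CXCL8 had 44.3, 32.8, 39.3 and 36.9 CPM, a log2 fold change of 0.10 (SE 0.17), which overlaps DMSO. With Tpc + OL9-119 it had 37.7, 39.4, 37.0 and 42.3 CPM, a log2 fold change of 0.13 (SE 0.17). The 95% intervals of the fold were 0.850 to 1.36 and 0.868 to 1.39. CCL20 had 16.1, 9.72, 14.1 and 10.5 CPM with Tpc and 10.1, 12.3, 8.53 and 14.7 CPM with Tpc + OL9-119. Its intervals were 0.653 to 1.29 and 0.594 to 1.17. For the scarce CXCL10, with 20 counts over the 4 PARP1-KO DMSO libraries, the intervals were much wider, at 0.279 to 3.01 and 0.604 to 5.72. The medians over the 9 genes were -0.12 (Tpc), 0.05 (OL9-119) and 0.19 (Tpc + OL9-119), with 0.00, -0.01 and 0.00 over all genes.

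**Figure D4:**
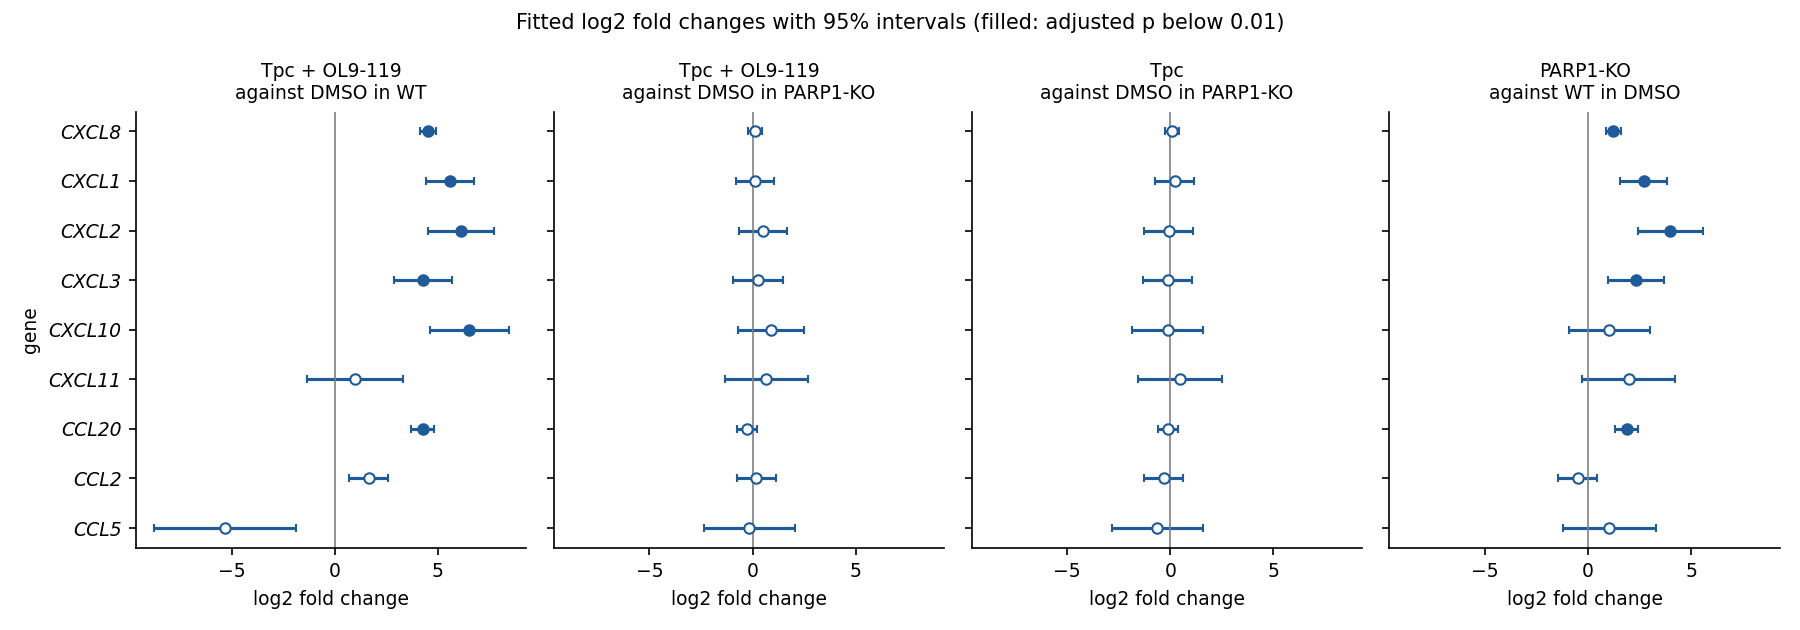
Fitted log2 fold changes of the 9 chemokine genes (1 row each) in 4 comparisons (1 panel each), with 95% intervals of 1.96 standard errors on each side and filled points for an adjusted p under 0.01. Tpc + OL9-119 in WT has 6 filled points, from 4.28 to 6.53, both PARP1-KO treatment panels have open points near 0, and PARP1-KO against WT in DMSO has 5 filled points from 1.21 to 3.99.

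The difference between the genotypes in the response to Tpc + OL9-119 was tested with an interaction term. The log2 response in PARP1-KO minus that in WT was negative and past the threshold for 5 of the 9 chemokines. The same held for 0.311% of all genes. The difference in log2 fold change was -4.41 for CXCL8 (SE 0.25, adjusted p = 4.42e-20), -4.54 for CCL20 (SE 0.38, adjusted p = 1.07e-13) and -5.46 for CXCL1 (SE 0.75, adjusted p = 1.44e-06; -6.39 without WT DMSO replicate 3). CXCL2 had -5.63 (SE 1.01, adjusted p = 0.000337) and did not pass with untreated cells as comparator (-3.26, adjusted p = 0.0848). Without WT DMSO replicate 3 it was fitted at -9.60, no bound with all other WT DMSO libraries at 0. CXCL10 had -5.63 (SE 1.27, adjusted p = 0.00971), but it did not pass in 14 of the 16 fits without 1 library, all except those without PARP1-KO DMSO replicate 3 and without WT DMSO replicate 4 (-7.75 in the latter), nor when only the libraries compared were fitted. CXCL3 had -4.00 (SE 0.92, adjusted p = 0.0126) and passed with DESeq2 (adjusted p = 1.68e-05) and without WT DMSO replicate 1 (-6.39). Within library name prefixes the CXCL8 difference lay between -4.61 and -4.24. These differences set 100 nM Tpc in WT against 50 nM in PARP1-KO cells. OL9-119 was used at the same dose in both, and no chemokine passed the test of the difference in response to OL9-119 alone, where 0.1% of all genes did. CXCL2 and CXCL3 had an unadjusted p under 0.05 there, and none passed with DESeq2.

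Among the 35 other chemokine ligands, 18 could be tested. CXCL16, a membrane-anchored ligand of CXCR6 and the highest of these in CPM, was lower in PARP1-KO cells with DMSO, at 10.5 ± 0.787 against 25.7 ± 7.99 CPM (log2 fold change -1.31, SE 0.24, adjusted p = 2.05e-05). CCL4, a chemokine that attracts monocytes and T cells, rose in WT cells with Tpc + OL9-119 (adjusted p = 0.00334), from 0 counts over the 4 DMSO libraries to 59. No other ligand of the list passed in any of the 9 tested comparisons. In PARP1-KO against WT with DMSO 1 of the 18 was thus lower, near the 5.75% of all genes that were lower. With Tpc + OL9-119 in WT 1 of the 18 rose, where 1.84% of all genes rose. Their median log2 fold change with Tpc + OL9-119 in WT was 0.88, against 0.00 over all genes. Of the 23 chemokine receptors 12 could be tested, and none passed with any treatment. CXCR4, the receptor of CXCL12 and the highest in CPM, was higher in PARP1-KO cells with DMSO, at 44.6 ± 6.77 against 17.9 ± 7.79 CPM (adjusted p = 7.58e-06). CCR4 was also higher (adjusted p = 0.00511), with 0 counts in WT DMSO and 56 in PARP1-KO DMSO over 4 libraries each. These were 2 of the 12 receptors, where 6.67% of all genes were higher. The other WT conditions had 4 (Tpc), 22 (untreated), 25 (OL9-119) and 54 (Tpc + OL9-119) CCR4 counts, and the other PARP1-KO conditions 32 to 72. CXCR2, the receptor of CXCL8 and CXCL1, averaged below 1 CPM in WT DMSO, WT Tpc + OL9-119 and PARP1-KO DMSO cells, at 0.0533, 0.870 and 0.676 CPM.

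The 10 NF-kappa B subunits and inhibitors were compared in the same way. With Tpc + OL9-119 in WT cells 6 of the 10 genes rose and none fell, with a median log2 fold change of 1.22. Of all genes, 1.84% rose and 1.54% fell there. TNFAIP3 (A20), which dampens NF-kappa B signalling, rose by 4.02 (SE 0.20, adjusted p = 2.35e-23), from 11.2 ± 4.88 to 182 ± 14.5 CPM. NFKBIA, the inhibitor I-kappa B alpha, rose by 2.35 (SE 0.13, adjusted p = 4.46e-21), RELB by 2.17 (SE 0.19) and NFKB2 by 1.30 (SE 0.16). RELA, a subunit of the most common NF-kappa B dimer, had 120 ± 17.8 against 91.5 ± 8.36 CPM and did not pass. With OL9-119 alone in WT cells 3 of the 10 rose, by 0.75 (NFKBIA), 0.87 (TNFAIP3) and 0.80 (RELB), where 0.488% of all genes rose. In PARP1-KO cells none of the 10 passed with any treatment, where at most 0.00346% of all genes did. In PARP1-KO against WT with DMSO 4 were higher, TNFAIP3 by 2.28, RELB by 1.42, NFKBIA by 0.97 and NFKBIB by 0.94. NFKB1 was lower, with a log2 fold change of -0.61. Of all genes, 6.67% were higher and 5.75% lower in that comparison. The difference in response to Tpc + OL9-119 was negative and past the threshold for TNFAIP3, NFKBIA, RELB, BIRC3, NFKB1 and NFKB2. It ran from -3.93 for TNFAIP3 to -1.11 for NFKB2, and these are the 6 that rose in WT. The share of all genes with such a difference was 0.311%.

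**Figure D5:**
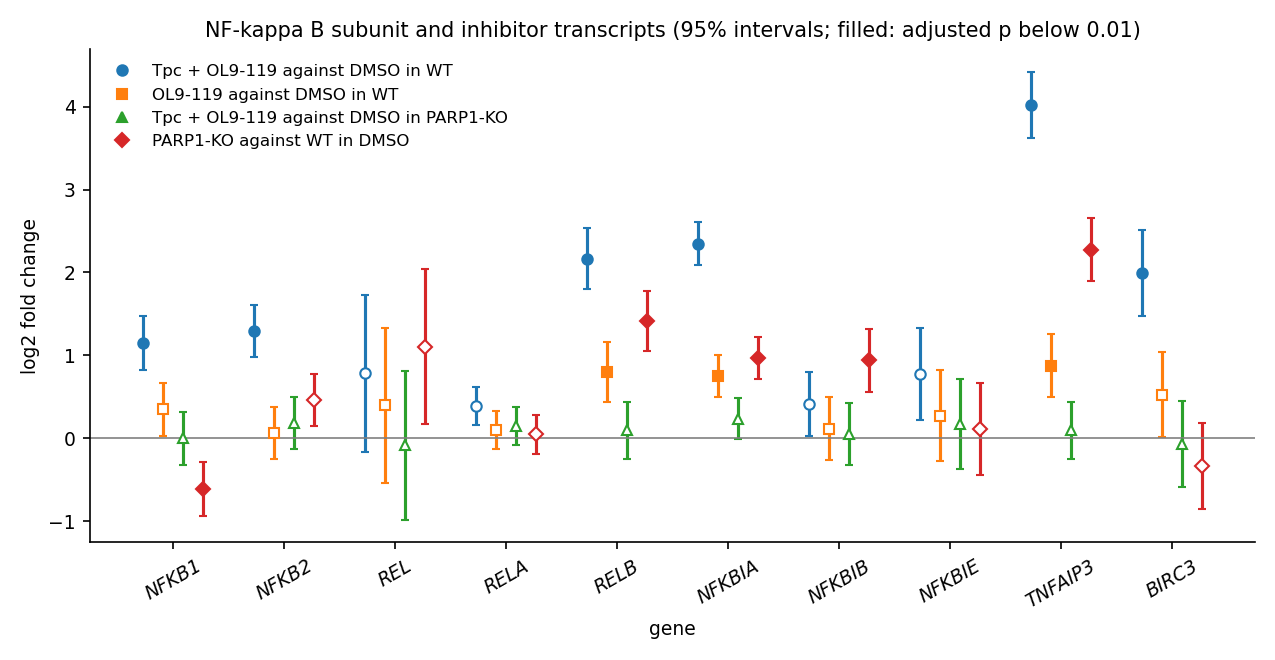
Fitted log2 fold changes of 10 NF-kappa B subunit and inhibitor genes in 4 comparisons, with 95% intervals and filled symbols for an adjusted p under 0.01. TNFAIP3 has the highest points, 4.02 with Tpc + OL9-119 in WT (blue) and 2.28 in PARP1-KO against WT (red), while the PARP1-KO responses to Tpc + OL9-119 (green) are all open and near 0.

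Of the 12 interferon-related genes only IRF1, a transcription factor that is also an NF-kappa B target, rose with Tpc + OL9-119 in WT cells, by 0.86 (SE 0.20, adjusted p = 0.00293), and the median of the list was 0.01. Of all genes, 1.84% rose there. IFIT2, an interferon-induced gene, was higher in PARP1-KO cells with DMSO, by 1.25 (adjusted p = 0.00572). It was the only 1 of the 12 to pass there, near the 6.67% of all genes that were higher. Of the 6 AU-rich element binding proteins, ZFP36L1, which promotes decay of such mRNAs, rose in WT cells with Tpc + OL9-119 (1.16, SE 0.14, adjusted p = 1.32e-08) and with OL9-119 (0.59, SE 0.14, adjusted p = 0.00880). The shares of all genes that rose were 1.84% and 0.488%. In PARP1-KO against WT with DMSO, ZFP36L1, ZFP36 and KHSRP were higher, by 1.17, 1.54 and 0.56, and HNRNPD was lower, at -0.92. Among all genes 6.67% were higher and 5.75% lower in that comparison. The difference in response to Tpc + OL9-119 passed for ZFP36L1 (-1.11, adjusted p = 0.000248), where 0.311% of all genes had such a negative difference. Among the upstream cytokines none of the 4 tested passed in any comparison. TNF had means of 1.19 ± 1.62 CPM in WT DMSO, 5.47 ± 4.56 in WT Tpc + OL9-119 and 4.81 ± 1.29 in PARP1-KO DMSO cells.

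Some marker genes also differed between the genotypes with DMSO, where 6.67% of all genes were higher and 5.75% lower in PARP1-KO cells. CD14, a monocyte marker, had 0.174 ± 0.303 CPM in WT and 2.95 ± 0.490 CPM in PARP1-KO cells (adjusted p = 0.00124). It was the only 1 of 10 leukocyte markers to pass, which is near the share of all genes that were higher. VIM was higher in PARP1-KO cells (log2 fold change 0.60), and KRT18, NEFM, PAX2 and KRT8 were lower (-0.74, -1.95, -2.51 and -0.38). COL1A1 was lower as well (-1.04). With Tpc + OL9-119 in WT, where 1.84% of all genes rose and 1.54% fell, only KRT8, at -0.44, passed among these lists. No leukocyte, endothelial or fibroblast marker did. The part of the marker differences in the chemokine results was not tested.

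Across the 10 condition means of log2(CPM + 0.5), the genes most like CXCL8 among the other 12886 genes compared (those that reached a condition mean of 5 CPM) were CCL20 (Pearson's r = 0.983), TNFRSF9 (0.980), CD69 (0.977), NFKB2 (0.975) and CXCL1 (0.965). Those most like CCL20 were CXCL1 (0.984), CXCL8 (0.983), NFKB2 (0.977), TNFRSF9 (0.968) and TNFAIP3 (0.967). For CXCL10 they were USP43 (0.961), EFNA1 (0.950), PLAU (0.948), BMP2 (0.946) and DDX17 (0.944). TNFRSF9 (4-1BB, a TNF receptor family member) stood at 11.2, 66.9, 65.1 and 22.4 CPM in WT DMSO, WT Tpc, WT Tpc + OL9-119 and PARP1-KO DMSO cells. USP43, a ubiquitin-specific protease gene, stood at 6.84, 16.8, 19.7 and 8.08 CPM in the same order. CXCL8 and CXCL10 themselves had r = 0.939, CXCL8 and CXCL11 0.047, and CXCL8 and CCL5 -0.334. These 10 points share libraries and include the Tpc-treated WT cells that chose the genes, so the values are a description only.

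Sequence similarity and overlapping genes could blur counts between neighbours. CXCL8, CXCL1, CXCL2, CXCL3, CXCL10 and CXCL11 all lie on chromosome 4 in GENCODE 44 (hg38), at chr4:73740519-73743716, chr4:73869393-73871308, chr4:74097040-74099196, chr4:74036589-74038807, chr4:76021118-76023497 and chr4:76033682-76041415. CCL20 lies at chr2:227805739-227817564, CCL2 at chr17:34255274-34257208 and CCL5 at chr17:35871491-35880793. No stretch of 100 bases in the longest transcript of CXCL1, CXCL2 or CXCL3 was identical to any transcript of another gene, nor in the 5 others except CCL5, of whose windows 7.92% were shared with other genes. CXCL10 and CXCL11 overlap the gene ART3 on the opposite strand, CXCL11 overlaps the processed pseudogene RPL36P8 on its own strand, and CCL5 overlaps a long non-coding RNA gene on the opposite strand, with no exon in common in any case. Which strand setting was kept for the counts is not stated, so reads from introns of these partners cannot be told apart by strand.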

How the data were processed

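HEK293A poly(A) RNA was sequenced in 40 libraries. Per the labels and the study's methods, STAR 2.7.8 aligned the directional libraries to hg38, using Ensembl genes, and the authors deposited raw gene counts, neither normalized nor filtered (FastQC 0.11.9 and Picard 2.26.6 are named in the submitters' processing notes). Symbols came from GENCODE 44 (57754 of 58395 identifiers). Genes with a summed count of at least 10 were fitted over all 40 libraries with edgeR 4.0.16 in R 4.3.3 (TMM, quasi-likelihood F-test, 1 coefficient per condition), with Benjamini-Hochberg adjustment over 28922 genes and a threshold of 0.01. The standard error is the log2 fold change over the square root of F. The code was tested on simulated data. DMSO was the comparator.

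The chemokines and all lists were chosen with earlier results of these data known. Named beside them were, per list and comparison, the called genes (at most the 4 of smallest adjusted p) and the most abundant gene, for 3 chemokines the 5 genes of most similar profile, and PARP1; CXCR2, PTPRC and the called genes of a list beyond the fourth (BIRC3, NFKB1, NFKB2, KRT8) were added after their values were seen. A gene that this rule names is not reported here. Alternatives were DESeq2 1.42.0, RLE scaling, no filter, filterByExpr, a replicate block, the library name prefix as a term, only the libraries compared, leaving out each library, and untreated cells as comparator. Replicate numbers were not used as pairs in the main fit.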

Additional observations from a re-analysis of the deposited data

Results flagged for a closer look

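The difference between the genotypes was negative and passed the interaction test for Tpc + OL9-119 against DMSO in 5 chemokines. The share of all genes with such a difference was 0.311%. The log2 response in PARP1-KO minus that in WT was -4.41 for CXCL8, -5.46 for CXCL1, -5.63 for CXCL2, -5.63 for CXCL10 and -4.54 for CCL20. Of these, CXCL10 did not pass in 14 of the 16 fits without 1 library. CXCL2 did not pass with untreated cells as comparator. The Tpc dose was 100 nM in WT and 50 nM in PARP1-KO cells, so dose and genotype cannot be told apart. CXCL8, CCL20 and CXCL10 were chosen by their levels with Tpc in WT cells, so their passing is not independent of that choice.

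Of 64 groups of 4 libraries with a mean of at least 10 counts, 5 held a library far from the other 3, where chance gives about 1 in 20 groups. In WT cells with Tpc the highest library held 21.8 CPM of CXCL1, 11.2 CPM of CXCL10 and 3.02 CPM of CXCL11; it was replicate 2 for CXCL1 and CXCL11 and replicate 1 for CXCL10. In untreated PARP1-KO cells replicate 1 held 15.7 CPM of CCL20. In WT cells with OL9-119 replicate 2 held 19.5 CPM of CCL2, where the others held 5.25 to 6.79 CPM.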

How the results depend on the processing

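The 6 chemokines called with Tpc + OL9-119 against DMSO in WT were 5 to 7 under the alternatives, and 6 whichever library was left out. The 5 called against OL9-119 were 5 or 6 (5 whichever was left out). No chemokine was called in any PARP1-KO treatment comparison, or in the difference in response to OL9-119, under any alternative. The count in PARP1-KO against WT with DMSO fell from 5 to 2 (CXCL8 and CCL20) with untreated cells as comparator. The untreated WT libraries had helped to choose both genes, so these 2 calls are not an independent result. The count was also 2 when only the libraries compared were fitted, and 4 to 5 when 1 library was left out. The count with OL9-119 in WT rose from 0 to 1 (CXCL3) with DESeq2 and to 1 with untreated cells, and was 0 to 1 when 1 library was left out. The difference in response to Tpc + OL9-119 had 4 to 6 calls (4 to 5 when 1 library was left out). The cause of these changes was not tested. The median description of Tpc against DMSO in WT, 4.28, stayed between 3.99 and 4.54 over all alternatives; CXCL11 alone turned sign, to -0.17 with untreated cells. Of 1574 single values under alternatives, 33 lost a call and 11 gained one; 65 others, called under neither setting, differed in sign.

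The replicate block left 5 calls in PARP1-KO against WT, 6 with Tpc + OL9-119 against DMSO and 5 against OL9-119 in WT, and 5 in the difference in response, as without it, and 0 elsewhere. Same-numbered libraries correlated above 0.1 in at most 2 of 4 pairs in any comparison, in their deviations from the condition means. In PARP1-KO cells the mean correlation of same-numbered libraries was 0.182 for DMSO with Tpc and 0.193 for DMSO with OL9-119. For other numbers it was -0.053 and -0.061, so some pairing there is possible. Depth limits CCL5, CXCL11 and, without Tpc, CXCL1, CXCL2, CXCL3 and CXCL10, with under 10 counts in most WT libraries.

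Counts over all genes moved by over 1.5 times under some alternatives. With OL9-119 in WT, 334 genes were called, against 719 with DESeq2, 556 with no filter and 46 when only the libraries compared were fitted. With Tpc + OL9-119 against DMSO in WT 978 were called, against 1617 with DESeq2 and 136 when only the libraries compared were fitted, and against OL9-119 118, compared with 278, 210 with no filter and 65. PARP1-KO against WT had 3592, and 1636 when only the libraries compared were fitted. The difference in response to OL9-119 had 29, against 52 with DESeq2, 52 with no filter, and 19 with untreated cells or only the libraries compared; that to Tpc + OL9-119 had 90 negative and 35 positive calls, against 248, 227, 78 and 57 in all. In PARP1-KO cells at most 6 genes were called in any comparison under any of these alternatives.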
